A study of Homo sapiens with 12 samples.

Results

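The kinesin motor genes are the protein-coding genes of the count table whose symbol begins with KIF or KIFC and a digit, 43 of the 58735 genes listed. By their best known function, 14 were grouped as mitotic kinesins, 15 as transport kinesins and 13 as other kinesins. The remaining member, KIF1BP, encodes a kinesin-binding protein and is not a motor. The genes were measured by RNA sequencing in TIGK cells, a human gingival keratinocyte line that carries hTERT, the catalytic subunit of telomerase. All cells were kept at 48 mM glucose in a base medium that held no Arg, and received either no Arg (control) or 500 µM Arg for 24 or 48 h. The 4 groups had 3 libraries each (replicates A, B and C), so that 12 libraries of a single cell line were compared. No source used here says that the replicates came from separate cultures, and the p-values then measure only the spread between these libraries, which may be technical.

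Kinesins use ATP to walk along microtubules or to take their ends apart. Mitotic kinesins build the spindle, move chromosomes and complete cytokinesis, and their genes are mostly transcribed from S phase to mitosis. Transport kinesins carry vesicles, organelles and RNA in dividing and resting cells alike, and in epithelial cells they also serve cilia and cell junctions.

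The libraries held between 16542243 and 19040964 counts, and kinesins took from 0.181% to 0.234% of them. Of the 43 members, 42 had a count in at least 1 library. KIF2B had none, and a count of 0 allows up to 0.156 to 0.179 CPM (counts scaled to the size of each library) depending on the library, for counting error only. Summed markers of keratinocytes lay between 41170 and 53710 CPM, and none of the 10 was below 1 CPM. Leukocyte markers summed to at most 0.45 CPM, and endothelial and melanocyte markers to at most 6.42 and 3.06 CPM. Of the 6 fibroblast markers, 3 (COL1A1, DCN and LUM) were above 1 CPM in at least 1 library of each group. LUM was lower in other libraries, down to 0.433 CPM in replicate A of the 24 h control. Replicate B of the 48 h control stood apart, with 1.55% of its counts from the mitochondrial chromosome against 0.707% and 0.906% in the other two, and results that rest on it are given with and without it.

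Levels of different genes were compared as CPM per kilobase of exonic length. The mitotic kinesins were the most abundant class. In the 24 h control they summed to 249 CPM per kilobase on average, against 80.4 for the transport kinesins. KIF20A, which brings the chromosomal passenger complex to the central spindle, had the highest level of all members, with a mean of 61.5 CPM per kilobase over the 12 libraries (range 45.2 to 72.9). It was followed by KIF2C, a microtubule depolymerase of the centromere (44.6, range 36.1 to 54.6), and by KIFC1, a motor that walks to the minus end and focuses spindle poles (32.2, range 25.6 to 41.7). The ranges of these neighbours overlapped.

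Among transport kinesins, KIF5B, the ubiquitous heavy chain of conventional kinesin, led with 27.4 CPM per kilobase (range 25.8 to 29.4), the narrowest range in relative terms among the members at 5 CPM or more. KIF3B, a heterotrimeric kinesin subunit, averaged 12.5 and KIF1C, a carrier of vesicles and RNA, averaged 12.2, and their ranges overlapped. Kinesins known from neurons were scarce, with means of 0.0443 for KIF1A, 0.18 for KIF5A and 0.174 for KIF5C. Of the other kinesins, the depolymerase KIF2A (9.98), KIF26A (6.05) and KIF7, which regulates Hedgehog signalling in the cilium (3.58), were highest. KIF2A shares most of its span with IPO11 on the same strand and KIF7 overlaps TICRR, so that some of their counts may belong to those genes. KIF4B, a near copy of KIF4A, held 23 counts in all libraries together, and reads cannot be assigned between such copies with certainty.

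**Figure D1:**
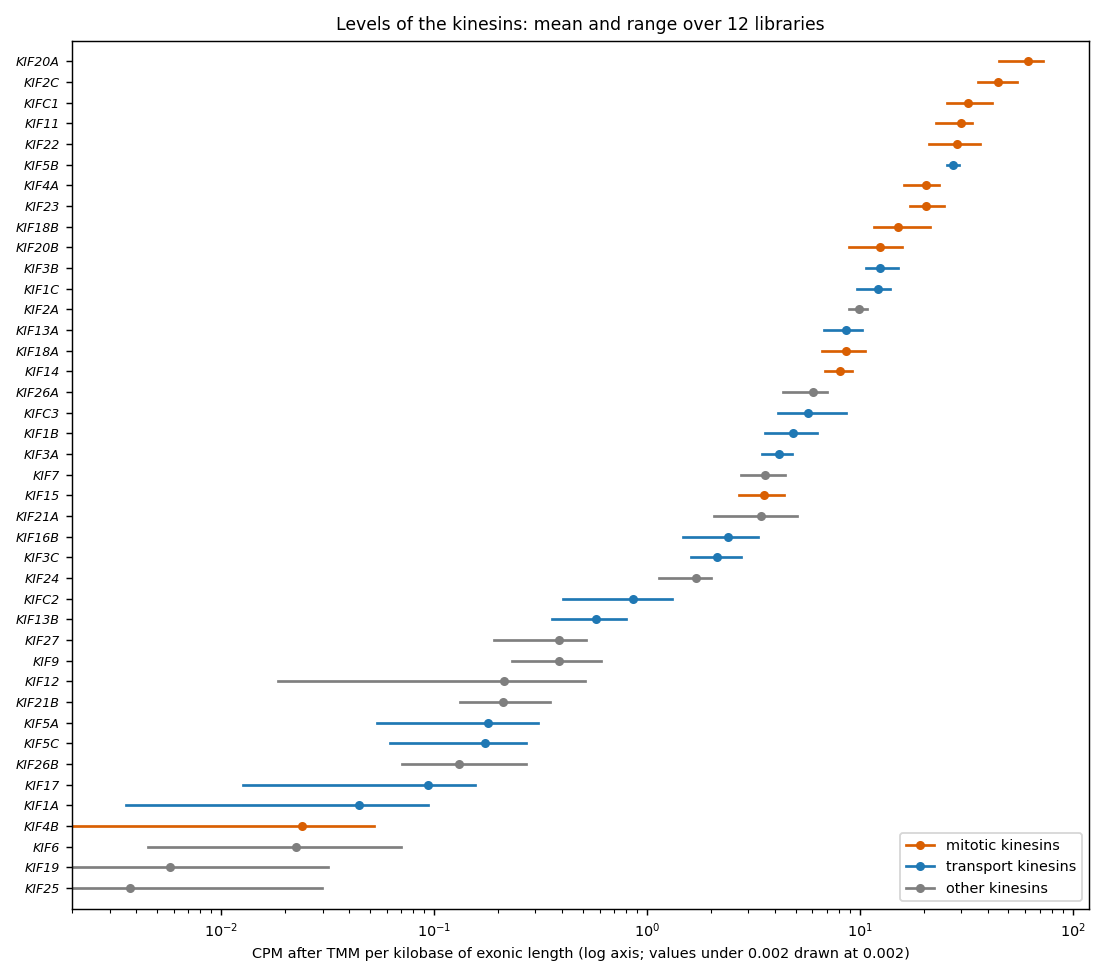
Level of each kinesin with a count, as CPM per kilobase of exonic length on a log axis. Points are means over 12 libraries, lines run from the lowest to the highest library, and colours give the class. The 5 highest members were mitotic kinesins, with KIF20A at 61.5, and KIF5B was the highest transport kinesin at 27.4.

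Promoters are shown because the mitotic kinesins moved together in these data. RefSeq promoters (GRCh38.p14, from 250 bases before to 50 bases after the start) were matched for 35 of the 43 members, all 14 mitotic ones among them, 11 transport, 9 other and KIF1BP. The start used for KIF24 lay 17897 bases, and that for KIF25 1430 bases, from the start in the count table. Those for KIF9 (652 bases), KIF20A (393), KIFC1 (287), KIF21A (270) and KIF3C (252) also lay more than 250 bases from it. The sequence TTTGAA is the core of the cell cycle genes homology region, which late cell cycle genes use, and CCAAT is the site known for the factor NF-Y. On either strand, TTTGAA was found in 10 of 14 mitotic promoters (71.4%), in 1 of 11 transport promoters, that of KIF5B, and in 0 of 9 other promoters. It was found in 15.2% of all 35116 promoters of the table. CCAAT was found in 11 of 14 mitotic, 3 of 11 transport and 3 of 9 other promoters, against 34.6% of all. Both stood in 9 of 14 mitotic promoters, in 1 of 11 transport promoters and in 5.9% of all, a combination chosen after the separate matches were seen. KIF4A and KIF4B are copies and do not count as independent. The related TTCGAA was found in 1 mitotic promoter, that of KIF22, in 0 of 11 transport promoters and in 1 of 9 other promoters, that of KIF24 (1.45% of all), and the E2F-like GGCGGGAA in no member (3.16% of all). The matches within the members did not overlap one another, and they are a description of letters. KIF13B, KIF19, KIF21B, KIF26B, KIF27, KIF5A, KIFC2 and KIFC3 had no matched promoter.

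The 100 bases before the start are printed for 8 mitotic kinesins and for the transport kinesins KIF5B and KIF3B, 5′ to 3′ on the strand of the gene. Capitals mark TTTGAA or TTCGAA and CCAAT, or their reverse complements TTCAAA and ATTGG. The windows were chr10:92593030-92593129 for KIF11, chrX:70290004-70290103 for KIF4A, chr15:69414249-69414348 for KIF23, chr16:29790651-29790750 for KIF22, chr5:138179012-138179111 for KIF20A, chr1:44739737-44739836 for KIF2C, chr3:44761694-44761793 for KIF15 and chr20:32277551-32277650 for KIF3B on the plus strand. They were chr11:28108157-28108256 for KIF18A and chr10:32056426-32056525 for KIF5B on the minus strand.
KIF11: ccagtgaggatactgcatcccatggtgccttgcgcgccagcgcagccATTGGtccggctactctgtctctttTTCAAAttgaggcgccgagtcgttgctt
KIF4A: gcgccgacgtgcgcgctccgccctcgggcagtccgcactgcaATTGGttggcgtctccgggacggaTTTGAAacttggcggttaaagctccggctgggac
KIF18A: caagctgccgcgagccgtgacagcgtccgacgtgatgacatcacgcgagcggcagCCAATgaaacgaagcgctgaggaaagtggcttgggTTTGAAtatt
KIF23: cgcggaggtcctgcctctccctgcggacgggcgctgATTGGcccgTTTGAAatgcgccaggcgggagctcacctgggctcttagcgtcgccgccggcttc
KIF15: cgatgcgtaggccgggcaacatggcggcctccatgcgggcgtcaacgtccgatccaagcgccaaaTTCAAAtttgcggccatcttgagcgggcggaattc
KIF22: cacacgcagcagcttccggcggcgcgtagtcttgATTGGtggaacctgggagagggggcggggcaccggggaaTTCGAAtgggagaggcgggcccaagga
KIF20A: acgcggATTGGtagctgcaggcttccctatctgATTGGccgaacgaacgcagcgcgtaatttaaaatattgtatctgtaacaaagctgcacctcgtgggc
KIF2C: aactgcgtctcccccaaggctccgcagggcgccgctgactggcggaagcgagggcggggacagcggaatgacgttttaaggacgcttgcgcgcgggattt
KIF5B: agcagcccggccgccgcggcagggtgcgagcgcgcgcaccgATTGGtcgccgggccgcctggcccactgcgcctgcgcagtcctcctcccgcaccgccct
KIF3B: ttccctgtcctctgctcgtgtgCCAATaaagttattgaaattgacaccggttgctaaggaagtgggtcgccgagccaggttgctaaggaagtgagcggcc

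With the start counted as 0, CCAAT began at -53 and TTTGAA at -28 in KIF11, a distance of 25 bases, and at -58 and -34 in KIF4A, a distance of 24 bases. In KIF18A they began at -45 and -10, and in KIF23 at -64 and -55. In KIF14, KIF18B, KIFC1, KIF20B and KIF4B the TTTGAA began after the start, from position 1 in KIF14 to 30 in KIF20B. KIF20A held only CCAAT, KIF15 only TTTGAA, and KIF2C none of the letters searched. In KIF5B the TTTGAA lay at -140, upstream of the CCAAT at -59 and outside the printed window.

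The first comparison asked which kinesins differed between Arg and the untreated control after 24 h. Most of the mitotic kinesins tested rose, and no transport kinesin did. All 12 mitotic kinesins tested had a positive log2 fold change, from 0.27 to 0.58 with a median of 0.38, and 10 of them passed an adjusted p of 0.05. Among all 14279 genes tested, 2.79% rose and 3.84% fell at that threshold, and the median log2 fold change was 0.003. None of 15 transport kinesins rose and 1, KIFC3, fell, with a class median of 0.08. None of 9 other kinesins passed by edgeR, 1 was higher at an unadjusted p under 0.05 (10.8% of all genes higher and 11.9% lower), and their median was -0.02. Among them was the depolymerase KIF2A, with a log2 fold change of -0.05 and overlapping libraries. Counted as mitotic instead, KIF2A would be a negative member of that class, which would then not be positive throughout. The 24 h libraries of all 12 mitotic kinesins did not overlap, with each Arg library above each control library, which held for 12.9% of all genes tested. In the opposite direction, 5 of 15 transport kinesins had each Arg library below each control library, against 13.4% of all genes. Small changes were among them, such as KIF5B (-0.08) and KIF3A (-0.15). Each Arg library lay above each control library in 1 of 15 transport kinesins, KIF3B, and in 1 of 9 other kinesins, KIF21A. The difference between the classes was not tested.

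The chromokinesins, which bind chromosome arms and push them to the spindle equator, had the 2 lowest p-values among the members. KIF22 (ENSG00000079616) spans chr16:29790719-29805385 and KIF4A (ENSG00000090889) chrX:70290090-70420832 in GRCh38. KIF22 measured 94.4, 105 and 91.8 CPM in the control libraries A, B and C and 137, 158 and 142 CPM in the Arg libraries, in the same order. Its log2 fold change was 0.58 ± 0.09 (SE), with an adjusted p of 0.000581 by edgeR's quasi-likelihood test, and its promoter was the one with TTCGAA. KIF4A, which also organizes the spindle midzone, measured 73.5, 83.9 and 73.5 CPM in the controls and 105, 107 and 103 CPM with Arg. The Arg libraries lay within a narrow band above all controls, with a log2 fold change of 0.45 ± 0.08 and an adjusted p of 0.00433. KIF4A overlaps PDZD11 on the opposite strand by 425 bases.

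Of the 3 motors that set spindle bipolarity, KIF11 and KIFC1 rose. KIF11, the plus-end motor that slides spindle poles apart, measured 124, 130.1 and 111 CPM in the controls and 164, 164 and 157 CPM with Arg (log2 fold change 0.41 ± 0.08, adjusted p = 0.00577). KIFC1, which pulls against KIF11, measured 100.5, 100.1 and 85.8 CPM and 122, 139.6 and 132 CPM (log2 fold change 0.46 ± 0.09, adjusted p = 0.00461). For both, replicate C was the lowest control and no Arg library reached down to the controls. KIF15, which can take over part of the role of KIF11, measured 15.3, 14.4 and 15.5 CPM and 18.7, 23.0 and 18.9 CPM. Its log2 fold change of 0.42 ± 0.13 did not pass (adjusted p = 0.0585), and its span includes TMEM42 on the same strand.

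Of the mitotic kinesins that shorten microtubules at their ends or curb their growth, KIF2C, KIF18A and KIF18B rose, whereas KIF2A, a depolymerase of the other class, had a log2 fold change of -0.05 and did not pass. KIF2C measured 162, 154 and 153 CPM in the controls and 199, 192 and 191 CPM with Arg, a log2 fold change of 0.31 ± 0.08 (adjusted p = 0.0206). KIF18A, which damps chromosome oscillation, measured 35.5, 31.9 and 31.2 CPM and 40.7, 40.8 and 42.7 CPM (log2 fold change 0.33 ± 0.10, adjusted p = 0.0469), and overlaps METTL15 by 61 bases. KIF18B, which controls astral microtubules, measured 70.3, 75.7 and 61.2 CPM and 78.5, 99.7 and 87.1 CPM (log2 fold change 0.35 ± 0.10, adjusted p = 0.0465). The last pair passed only narrowly, and the gap between the groups was smallest for KIF18B, from 75.7 CPM in the highest control to 78.5 CPM in the lowest Arg library.

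Of the 4 cytokinesis kinesins, KIF20A, KIF23 and KIF20B rose. KIF20A measured 216, 229 and 179 CPM in the controls and 268, 279 and 289 CPM with Arg, a log2 fold change of 0.42 ± 0.09 (adjusted p = 0.00806). KIF20A overlaps CDC23 and BRD8 on the opposite strand by 68 and 268 bases. KIF23, the motor of the centralspindlin complex, measured 129, 130.2 and 114 CPM and 164, 157 and 156 CPM (log2 fold change 0.35 ± 0.08, adjusted p = 0.0136). KIF20B, which acts late in abscission, was tight in both groups, at 63.8, 61.0 and 63.1 CPM and 79.6, 80.7 and 76.9 CPM (log2 fold change 0.33 ± 0.08, adjusted p = 0.0218). KIF14, the partner of citron kinase at the midbody, did not pass (log2 fold change 0.27 ± 0.09, adjusted p = 0.0945), although its highest control of 60.5 CPM was still below its lowest Arg library of 63.2 CPM.

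**Figure D2:**
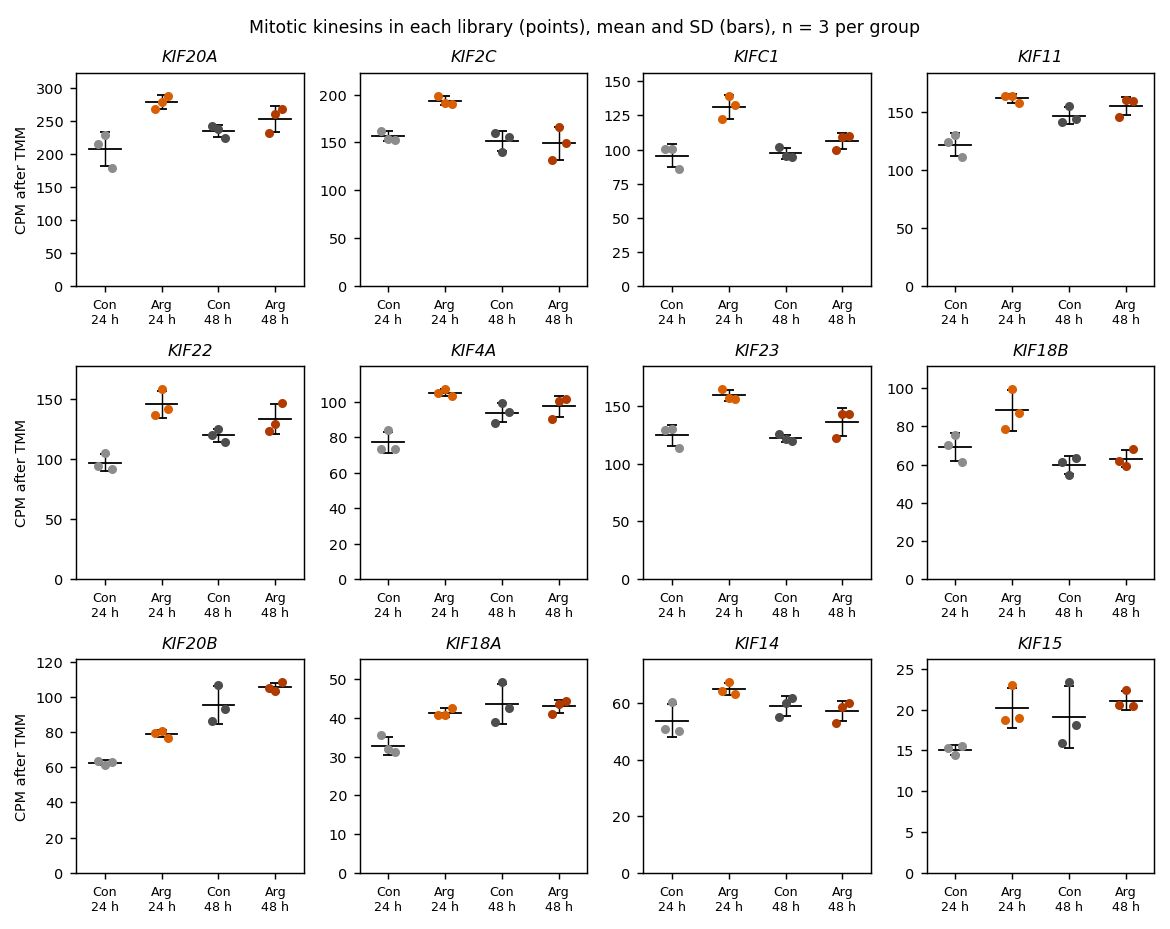
CPM after TMM scaling of the 12 mitotic kinesins tested, by library. Points are libraries, horizontal lines are means and error bars are SD, with 3 libraries per group, and each vertical axis starts at 0. At 24 h every Arg library lies above every control library in all 12 panels, whereas the 48 h groups overlap in each.

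Summed over the class, the mitotic kinesins reached 1029 to 1176 CPM in the 24 h control and 1440 to 1508 CPM with Arg, a ratio of means of 1.32. The transport kinesins summed to 634 to 643 CPM and 586 to 651 CPM, a ratio of 0.969. In 6 mitotic kinesins (KIF2C, KIFC1, KIF23, KIF4A, KIF18B and KIF14) each 24 h Arg library was higher than all 9 other libraries of the study, against 3.03% of the 14279 genes tested, and no transport or other kinesin showed it. Summed proliferation markers moved in the same direction, from 1917 to 2080 CPM in the control to 2343 to 2391 CPM with Arg, and their part in the kinesin difference was not tested. Counts from the mitochondrial chromosome fell outside the control range too, with 1.20% to 1.30% in the control and 0.624% to 0.802% with Arg, and this was likewise not tested. In bulk RNA, more cells in mitosis and more RNA per cell cannot be told apart.

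Most of these calls depended on particular libraries, as did the calls over all genes. KIF22, KIF4A and KIFC1 passed whichever library was left out. Without control A, 6 mitotic kinesins rose (KIF11, KIF20A, KIF22, KIF23, KIF4A and KIFC1), and without control C only KIF22, KIF4A and KIFC1 did. Without Arg B, 5 rose (those 3, KIF11 and KIF20A), and without Arg C, 4 rose (those 3 and KIF11). Without control B, 11 kinesins rose, with KIF14 and KIF21A added and KIF18A lost, and without Arg A, 10 rose, with KIF15 added and KIF18A lost. Over all genes, 398 rose with the 6 libraries, 126 without control A, 152 without control C, 149 without Arg B and 136 without Arg C, but 647 without control B and 482 without Arg A. KIF18A passed in none of the 6 fits (adjusted p from 0.0569 to 0.192). The direction was positive for all 12 mitotic kinesins in each case.

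**Figure D3:**
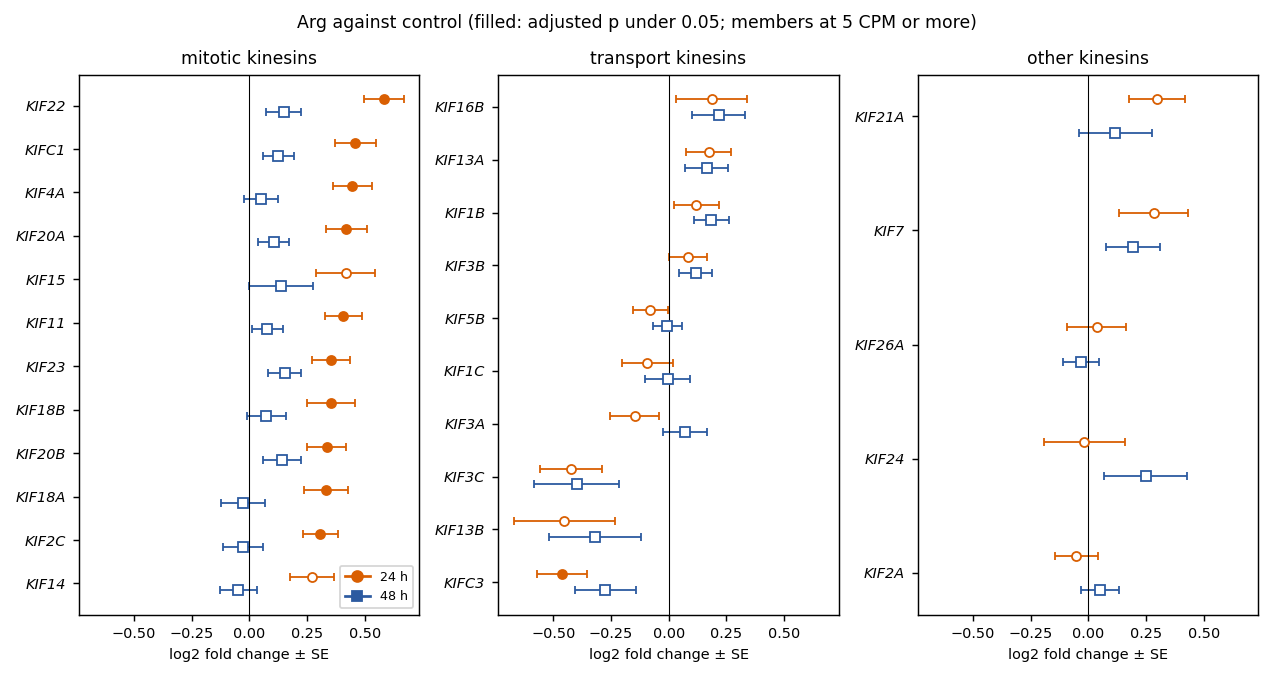
Log2 fold change of Arg against control at 24 h (circles) and 48 h (squares) for the members at 5 CPM or more, by class. Error bars are SE, and filled symbols mark an adjusted p under 0.05. The 24 h values of the mitotic kinesins lie between 0.27 and 0.58, while their 48 h values lie between -0.05 and 0.15, and KIFC3 is the 1 filled transport kinesin.

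Among transport kinesins, KIFC3 (ENSG00000140859, chr16:57758217-57863053), a minus-end motor linked to adherens junctions and the Golgi, was lower with Arg at 24 h. It measured 83.0, 63.4 and 66.5 CPM in the controls and 51.1, 56.9 and 46.9 CPM with Arg, a log2 fold change of -0.46 ± 0.11 (adjusted p = 0.0168). The highest Arg library stayed below the lowest control, but the call was lost without control A or without Arg C (adjusted p up to 0.127). KIF3C, an alternative partner of KIF3A, was measured at 17.3, 15.7 and 15.9 CPM and 11.5, 13.5 and 11.6 CPM, and its log2 fold change of -0.42 ± 0.14 did not pass (adjusted p = 0.0695). KIF5B was nearly level, with 161, 164 and 161 CPM in the controls and 154, 155 and 152 CPM with Arg (log2 fold change -0.08 ± 0.07, adjusted p = 0.564). KIF3B measured 65.2, 66.1 and 67.2 CPM and 71.0, 70.0 and 69.5 CPM (log2 fold change 0.08 ± 0.08, adjusted p = 0.588). KIF1C spread widely within the Arg group, with 119, 101 and 115 CPM in the controls and 83.6, 119 and 111 CPM with Arg, and the groups overlapped. The class median of 0.08 turned to -0.07 without control C and without Arg C.

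The 3 other kinesins with the highest level per kilobase did not pass at 24 h. KIF2A measured 51.5, 47.8 and 47.7 CPM in the controls and 48.6, 43.9 and 49.6 CPM with Arg (log2 fold change -0.05 ± 0.09, adjusted p = 0.786). KIF26A measured 29.4, 43.3 and 37.4 CPM and 32.5, 40.4 and 40.1 CPM (log2 fold change 0.04 ± 0.13, adjusted p = 0.899). KIF7 measured 15.2, 13.8 and 15.6 CPM and 14.7, 22.4 and 17.4 CPM (log2 fold change 0.28 ± 0.15, adjusted p = 0.275). The groups overlapped for all 3, as they did for KIF1BP, the kinesin-binding protein (log2 fold change -0.08 ± 0.09).

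The same question at 48 h gave no kinesin past the threshold. Among the 14562 genes tested, 0 rose and 17 fell (0.117%), and 0 of 37 kinesins tested passed by edgeR's quasi-likelihood test or by DESeq2. At an unadjusted p under 0.05, 1 kinesin was higher and 1 was lower, against 5.94% and 7.49% of all genes. Each Arg library lay above each control library in 3 of 37 kinesins (8.56% of all genes) and below in 0 (8.51% of all genes). The mitotic kinesins had a median log2 fold change of 0.09, with 9 of 12 positive, and the transport kinesins a median of 0.0026 and 7 of 14 positive.

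At 48 h the mitotic kinesins of the control libraries reached into the range of the Arg libraries. KIF22 measured 119.9, 125 and 114 CPM in the controls and 123, 129 and 147 CPM with Arg (log2 fold change 0.15 ± 0.08, adjusted p = 0.418). KIF4A measured 88.1, 99.0 and 94.3 CPM and 90.3, 100.3 and 101 CPM (log2 fold change 0.05 ± 0.07), and KIF11 measured 141, 154 and 144 CPM and 146, 159.6 and 159.5 CPM (log2 fold change 0.08 ± 0.07). All 3 overlapped between the groups. KIFC1 measured 102, 95.4 and 94.6 CPM and 99.4, 109 and 110.2 CPM. KIF20A measured 242, 238 and 224 CPM and 231, 260.0 and 268 CPM, and KIF23 measured 125, 121 and 119 CPM and 122, 143 and 142 CPM. In these 3 the lowest Arg library, replicate A, fell among the controls. KIF2C measured 160.1, 139.5 and 155 CPM and 132, 166 and 149 CPM, with all controls inside the Arg range. KIF18B measured 61.6, 54.7 and 63.4 CPM and 62.0, 59.3 and 68.2 CPM. KIF18A measured 39.1, 49.2 and 42.6 CPM and 41.1, 43.5 and 44.3 CPM, with its highest value in control B. KIF20B measured 86.1, 107 and 93.3 CPM and 105, 104 and 108 CPM, and control B was again the highest control.

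In the transport kinesins KIFC3 and KIF3C, control B lay apart from the other 48 h controls. KIFC3 measured 57.8, 39.7 and 62.0 CPM in the controls and 45.2, 42.6 and 44.2 CPM with Arg (log2 fold change -0.27 ± 0.13, adjusted p = 0.393). KIF3C measured 16.6, 10.4 and 17.8 CPM and 11.6, 10.4 and 11.9 CPM (log2 fold change -0.40 ± 0.18, adjusted p = 0.371). For both, controls A and C lay above all Arg libraries and control B lay below them. Without control B, KIF13A, KIF1B, KIF20B and KIF21A rose and KIF3C and KIFC3 fell, in a fit that called 1152 genes higher and 1213 lower of 14854. KIF1B, a kinesin of mitochondria and vesicle precursors, measured 83.8, 96.0 and 94.2 CPM in the controls and between 99.98 and 112 CPM with Arg. Its groups did not overlap, but it did not pass (log2 fold change 0.18 ± 0.08, unadjusted p = 0.033). KIF5B measured 162, 161 and 172 CPM and 162, 172 and 158 CPM, KIF3B measured 79.4, 80.9 and 80.9 CPM and 80.7, 92.6 and 88.8 CPM, and KIF1C measured 109.5, 83.2 and 109.6 CPM and 96.4, 106 and 98.9 CPM. The groups of these 3 overlapped. Of the other kinesins, KIF2A measured 49.2, 42.6 and 46.9 CPM and 46.0, 48.2 and 49.9 CPM, KIF26A measured 47.3, 42.6 and 45.1 CPM and 42.9, 44.8 and 44.6 CPM, and KIF7 measured 20.4, 17.2 and 16.3 CPM and 19.7, 21.4 and 20.7 CPM. These groups overlapped as well.

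Whether the Arg effect differed between 24 and 48 h was tested as an interaction over all 12 libraries, which 15148 genes entered. The test called 2 genes higher (0.0132%) and 0 lower, and 0 of 38 kinesins passed by edgeR's quasi-likelihood test or by DESeq2. All 12 mitotic kinesins had a negative interaction, which means a smaller Arg effect at 48 h, with a median of -0.32 and a range from -0.43 to -0.19. Of these, 8 had an unadjusted p under 0.05 in that direction, against 3.80% of all genes, and 0 in the other direction, against 3.06%. The lowest p belonged to KIF22 (interaction -0.43 ± 0.12, unadjusted p = 0.00166, adjusted p = 0.365) and to KIF4A (interaction -0.40 ± 0.11, unadjusted p = 0.00199, adjusted p = 0.391). The transport kinesins had a median of 0.03, and none had an unadjusted p under 0.05. A difference of the Arg effect between the times was therefore not detected for any single kinesin at this number of libraries.

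**Figure D4:**
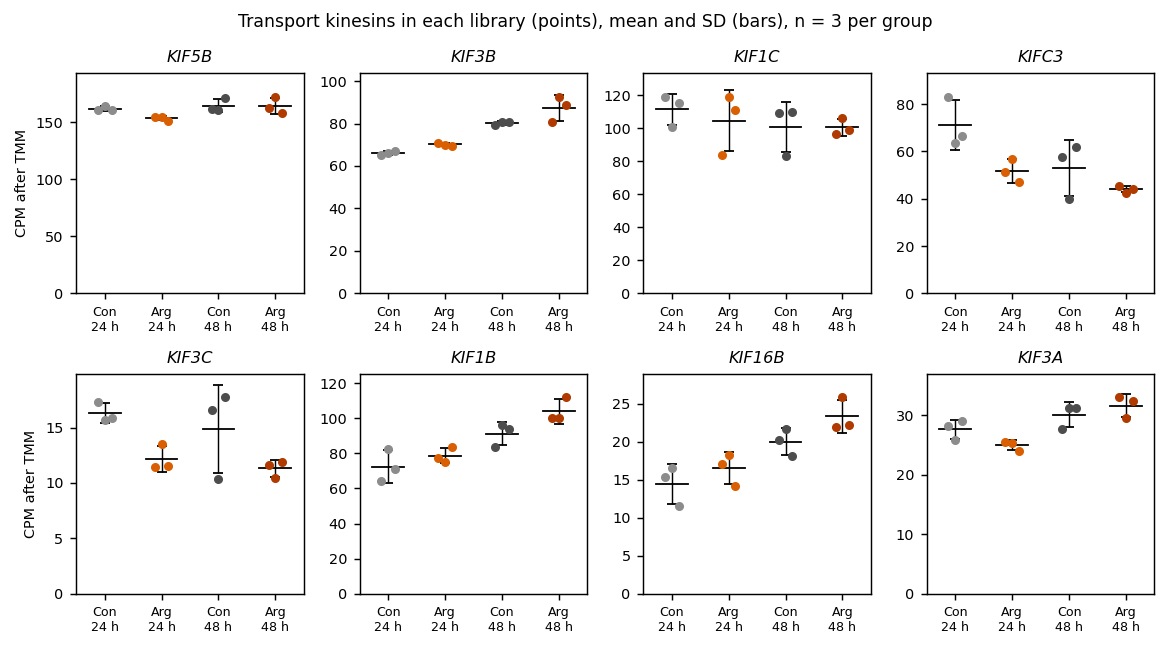
CPM after TMM scaling of 8 transport kinesins, by library. Points are libraries, horizontal lines are means and error bars are SD, with 3 libraries per group, and each vertical axis starts at 0. KIFC3 was lower with Arg at 24 h, whereas KIF3B, KIF1B and KIF16B were higher at 48 h than at 24 h under both treatments.

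Time in culture was compared within each treatment. In the control, 9 of 37 kinesins tested rose from 24 to 48 h and 0 fell, whereas 9.90% of 14449 genes rose and 10.0% fell. With Arg, 9 of 37 rose and 4 fell, against 14.3% and 14.0% of 14398 genes. In the control, 13 of 37 kinesins had all 48 h libraries above all 24 h libraries (19.2% of all genes) and 2 had them below (19.7%). With Arg, 12 had them above (21.1%) and 9 below (21.2%). The rising kinesins of the control were 5 mitotic, 3 transport and 1 other kinesin. Those of the Arg group were 1 mitotic, 6 transport and 2 other kinesins, and the 4 that fell were mitotic. The comparisons share their libraries with those between Arg and control, so that the values are set side by side and not counted as further evidence.

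Among mitotic kinesins, KIF20B rose under both treatments, by 0.61 ± 0.09 on the log2 scale in the control (adjusted p = 0.00217) and by 0.42 ± 0.07 with Arg (adjusted p = 0.000197). In the control, KIF18A (0.41), KIF22 (0.31), KIF4A (0.29) and KIF11 (0.27) also rose on that scale, while with Arg their log2 fold changes were 0.05, -0.13, -0.11 and -0.06 and did not pass. With Arg, KIF18B (-0.48), KIF2C (-0.38), KIFC1 (-0.30) and KIF23 (-0.23) fell, while in the control their values were -0.20, -0.04, 0.03 and -0.02 and did not pass. The test of the difference between these 2 time effects is the interaction above, in which no kinesin passed. In the control the class median was 0.22 and with Arg it was -0.13. The mitotic sum went from 1029 to 1176 CPM at 24 h to 1225 to 1267 CPM at 48 h in the control, and from 1440 to 1508 CPM to 1225 to 1379 CPM with Arg.

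The transport kinesins KIF3B, KIF1B and KIF16B, the last of which moves early endosomes, rose with time under both treatments. KIF3B rose by 0.28 ± 0.07 on the log2 scale in the control and by 0.32 ± 0.08 with Arg. KIF1B rose by 0.34 ± 0.10 and 0.40 ± 0.08, and KIF16B by 0.47 ± 0.15 and 0.50 ± 0.12. KIF3B was one of the most even members within groups, with no library of 24 h reaching the lowest library of 48 h (79.4 CPM in the control, 80.7 CPM with Arg). With Arg, KIFC2 (0.84), KIF3A (0.34), the partner of KIF3B, and KIF13A (0.24), which carries recycling endosomes, rose as well. In the control these genes did not pass by edgeR in the fit reported, but KIFC2 rose under DESeq2. Their mean CPM in the control at 24 and 48 h were 2.66 and 4.68 for KIFC2 and 27.6 and 30.1 for KIF3A. For KIF13A they were 82.7 and 97.9. In the control, the libraries of 24 and 48 h overlapped for KIF3A but not for KIFC2 or KIF13A. Whether these rises differed between the treatments is asked by the interaction above, in which no kinesin passed. KIF21A, which restrains microtubule growth at the cortex, rose by 0.60 ± 0.18 in the control and by 0.42 ± 0.10 with Arg. KIF12 was called higher with Arg (log2 fold change 2.23), but it rested on 1, 1 and 7 counts at 24 h and 12, 16 and 15 at 48 h, so that the fitted fold depends on the prior count. Over the same interval, 2 of 3 fibroblast markers tested rose under each treatment, with sums of 29.7 to 53.4 CPM at 24 h and 71.9 to 102 CPM at 48 h. Of 2 endothelial markers tested, 1 rose in the control and 2 with Arg, with sums of 0.757 to 3.01 CPM at 24 h and 4.09 to 6.42 CPM at 48 h. The part of either list was not tested.

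Most time calls of the control depended on particular libraries, and the number of genes called moved too, from 1431 higher with the 6 libraries to 422 without control 24 h A and 497 without control 24 h C. KIF20B passed whichever library was left out, and it was the 1 kinesin to rise without control 24 h A and without control 24 h C. Without control 24 h B, 10 kinesins rose, with KIF26A added, and 1585 of all genes. Without control 48 h A, 3 rose (KIF18A, KIF1B and KIF20B), and 912 of all genes. Without control 48 h B, 4 rose (KIF18A, KIF20B, KIF22 and KIF3B), and without control 48 h C, 4 rose (KIF18A, KIF20B, KIF21A and KIF22), with 1152 and 1154 of all genes. The fit without control 48 h C also called KIFC3 lower, with 1137 of all genes. With Arg, where between 1535 and 1838 of all genes rose against 2060 with the 6 libraries, KIF20B, KIF1B, KIF16B, KIF3B, KIF21A, KIF18B, KIF2C and KIFC1 passed in all 6 such fits. KIF23 was lost without Arg 48 h A or B, KIF3A without Arg 48 h A and KIFC2 without Arg 48 h C. KIF12 was lost without Arg 24 h A or B and without Arg 48 h B or C, and KIF13A was kept only without Arg 24 h B. Calls were gained for KIF7, higher without Arg 24 h B, and for KIF1C, lower without Arg 24 h A. KIFC3 was called lower without Arg 24 h C, and KIF1A without Arg 48 h C. Between 1378 and 1915 of all genes fell in these 6 fits, against 2012 with the 6 libraries. After a correction for exonic length, 6 kinesins rose and 1 fell in the control, and 7 rose and 7 fell with Arg. The same correction moved all genes from 1431 higher and 1451 lower to 1192 and 1862 in the control, and from 2060 and 2012 to 1584 and 2422 with Arg. KIF1B, whose exonic length of 17720 bases was the longest, lost both calls, KIF16B and KIF21A lost those in the control, and KIF13A lost that with Arg. KIFC3 was then called lower under both treatments, and KIF14 and KIF1A with Arg.

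**Figure D5:**
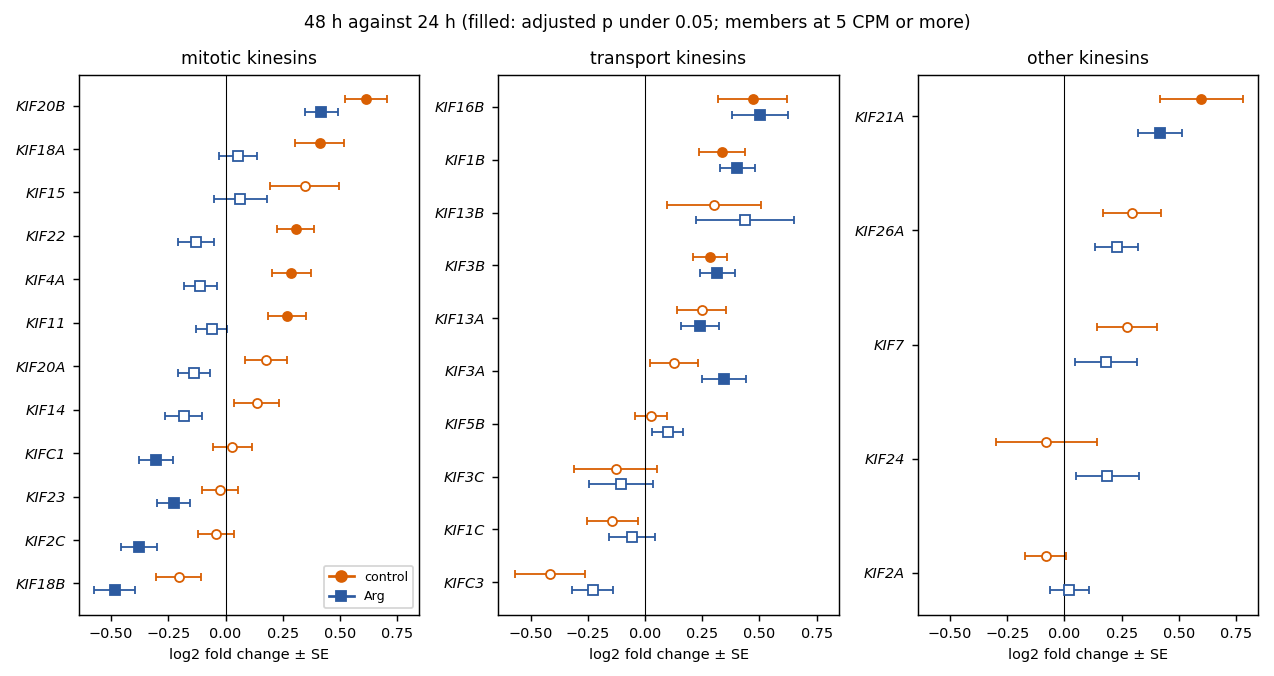
Log2 fold change from 24 to 48 h in the control (circles) and with Arg (squares) for the members at 5 CPM or more, by class. Error bars are SE, and filled symbols mark an adjusted p under 0.05. KIF20B, KIF16B, KIF1B, KIF3B and KIF21A were higher at 48 h under both treatments, and 4 mitotic kinesins were lower at 48 h with Arg.

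CENPE and STARD9, which are kinesins by sequence but carry no KIF symbol, stand outside the rule. CENPE, which brings chromosomes to the spindle equator, differed between Arg and control by 0.30 ± 0.11 on the log2 scale after 24 h, with an adjusted p of 0.115, and by -0.04 ± 0.08 after 48 h. It rose with time in the control (0.37 ± 0.09, adjusted p = 0.017). STARD9 had log2 fold changes of -0.12 ± 0.39 and -0.39 ± 0.34 and passed in no comparison.

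The partners of the mitotic kinesins were all positive at 24 h, as were 50.5% of all genes, and 5 of 16 rose, against 2.79% of all genes. They were CDCA8 (0.40) and INCENP (0.37) of the chromosomal passenger complex that KIF20A carries, TPX2 (0.35), which recruits Aurora A and binds KIF11, CIT (0.47), the citron kinase that binds KIF14, and RACGAP1 (0.34), the partner of KIF23 in centralspindlin. Their median log2 fold change was 0.16, beside 0.38 for the mitotic kinesins themselves. At 48 h, 0 of 16 passed by edgeR, with 0 higher and 2 lower at an unadjusted p under 0.05 (5.94% and 7.49% of all genes). With time in the Arg group, 9 of 16 fell, against 14.0% of all genes, led by AURKB (-0.58), PLK1 (-0.56) and BIRC5 (-0.50), the kinases and survivin that act with these motors. In the control, 3 of 16 fell with time and 1 rose, against 10.0% and 9.90% of all genes. Control means at 24 and 48 h were 123.3 and 95.7 CPM for AURKB, 282 and 222.7 CPM for PLK1, and 272.5 and 227.7 CPM for BIRC5. These genes were thus lower at 48 h without Arg as well.

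Of 18 adaptors of transport kinesins tested at 24 h, 1 rose, MAPK8IP3 (0.50), a scaffold that links kinesin to its cargo, and 1 fell, the kinesin light chain KLC2 (-0.48). These are single genes of 18, beside 2.79% higher and 3.84% lower among all genes. Dynein and dynactin, the opposing motor and its cofactor, had 2 of 24 higher, DYNC1LI2 (0.41) and DYNLL2 (0.35), and 1 lower, DYNLRB1 (-0.30). None of 14 tubulins, the subunits of the track, passed at 24 h by edgeR, although 2 were higher and 3 lower at an unadjusted p under 0.05, against 10.8% and 11.9% of all genes. With time, 6 of 15 tubulins fell in the control and 8 of 13 with Arg, against 10.0% and 14.0% of all genes, among them TUBA1C (-0.43 and -0.52) and TUBB4B (-0.45 and -0.39). Tubulin genes are near copies of one another, and their counts are uncertain to that extent. Of the proliferation markers, MKI67 (0.53) and TOP2A (0.37) rose at 24 h, 2 of 7, against 2.79% of all genes. A positive log2 fold change was seen in 6 of 7, as in 50.5% of all genes. PCNA was level (0.01) and CDK1 was negative (-0.07), with each Arg library of CDK1 below each control library. Neither PCNA nor CDK1 passed.

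The members of the mitotic class also varied together across libraries. Over the 12 libraries, the 66 pairs of the 12 expressed mitotic kinesins had a median Pearson's r of 0.71 in log2 CPM, and 62 were positive. With the group means removed, the median was 0.39. The 180 pairs of a mitotic and a transport kinesin had a median of -0.04, and the 105 pairs of transport kinesins a median of 0.10. With the group means removed, these 180 and 105 pairs had medians of 0.16 and 0.007. Positive pairs were then 54 of 66 mitotic, 110 of 180 mixed and 53 of 105 transport pairs. The transport kinesins included members with few counts, such as KIF17 (91 in all libraries together) and KIF1A (161). The mitotic kinesin of these pairs with the fewest counts, KIF15, held 4100. The part of counting error in the lower medians was not tested. No such correlation was computed over all genes. These are descriptions, since all pairs share the same 12 libraries and their scaling.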

How the data were processed

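Poly(A) RNA of 12 libraries of TIGK cells was sequenced, 3 per group. The authors trimmed reads with fastp, aligned them with STAR (GRCh38/hg38), and deposited raw featureCounts counts per gene with exonic lengths. Tool versions, annotation release and strand setting are not given in the sources used here, so that overlapping genes are uncertain. Each of the 12 count columns entered the analysis.

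Groups came from the labels. Counts were compared with edgeR 4.0.16 in R 4.3.3 (TMM, filterByExpr, quasi-likelihood test, no block), using the 6 libraries of a comparison or all 12 for the interaction, and p-values were adjusted by Benjamini-Hochberg over all genes tested. The study used DESeq2. CPM are scaled by TMM over all 12 libraries. Of 43 members, 37 passed the filter at 24 h, 37 at 48 h and 38 in the interaction. The smallest p that an exact permutation test could reach for a gene, at 3 against 3, is 0.1, and none was run.

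The members, classes and lists were chosen with earlier results of these data known. Values in every library were given for members past an adjusted p of 0.05 for Arg and for the 3 highest per kilobase of each class. Members past it for time and partner genes past it (at most 5 per list) were named. KIF15, KIF14, KIF3C, KIF1B, KIF1A, KIF5A, KIF5C and the members lost or gained without a library were named as well, after their values were seen. Alternatives were DESeq2 1.42.0, edgeR with the DESeq2 size factors, scaling by library size alone, all genes kept, a replicate block, a correction for exonic length (lowess, span 0.3, prior count 2) with and without the block, all 12 libraries in a model, KIF2A counted as mitotic, KIFC2 and KIFC3 left out of the transport class, and each library left out. Scripts were tested on simulated data. Promoters came from RefSeq.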

Additional observations from a re-analysis of the deposited data

How the results depend on the processing

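At 24 h, 10 mitotic kinesins rose in the fit reported, and from 9 to 11 kinesins rose under the other tools, scalings, filters, the length correction, the block and the model of all 12 libraries, with KIFC3 lower in each. KIF15 joined under DESeq2. With a library left out, from 3 to 11 rose and 0 or 1 fell, and the median of the transport class ranged from -0.0732 to 0.0802. At 48 h, leaving out a library gave 0 to 4 higher and 0 to 2 lower, all from the fit without control 48 h B, with transport medians from -0.0434 to 0.0942. The transport interaction median ranged from -0.017 to 0.0897. From 24 to 48 h in the control, 0 kinesins fell, against 1 under DESeq2, without the filter, with the length correction and with all 12 libraries, and with a library left out 1 to 10 rose and 0 or 1 fell. With Arg, 4 fell, against 7 under the length correction. The cause of these shifts was not tested.

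What the letters A, B and C share between groups is not given in the sources used here. Within each time, deviations of the Arg and control libraries of the same letter correlated between -0.0615 and 0.0361. Letters were not compared in this way between the times. With the replicate block, 9 mitotic kinesins rose at 24 h (KIF18A was lost), and 0 passed at 48 h and in the interaction. Over all genes, the block moved the calls from 398 higher and 549 lower to 379 and 545 at 24 h. At 48 h it moved them from 0 and 17 to 43 and 141. In the control over time, 11 kinesins rose and 1 fell with the block, and 2 fell with the length correction and the block. All genes there went from 1431 and 1451 to 1969 and 2075 with the block. With Arg, 7 kinesins fell with the length correction and the block. All genes there went from 2060 and 2012 to 1926 and 1853 with the block alone. No result reversed its direction among called values. With 3 libraries per group, smaller changes may be missed.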
